A study of Sus scrofa with 8 samples.

Results

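RNA of 8 genes of cell death and cell survival was compared between pig induced pluripotent stem cells (piPSCs) that overexpressed the transcription factor IRF-1 and control cells. The 8 genes were listed by name: the death receptor FAS and the death ligand TNFSF10, the caspases CASP8 and CASP1, the survival genes BCL2, BCL2L1 and MCL1, and the survival kinase PIM1. Of the 24358 gene identifiers counted, 6 carried the symbol of a gene on this list, and 5 of these 6 had enough counts to be tested.

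The cells were DOX-hLIF-2i piPSCs from a male domestic pig line, made by lentiviral delivery of reprogramming factors under doxycycline control into embryonic fibroblasts with an OCT4 reporter. By the study's methods they were kept on feeder cells with doxycycline, human and porcine LIF and inhibitors of MEK and GSK3. The sample labels name another culture medium. The overexpressing cells carried a piggyBac vector in which the CAG promoter drives Flag-tagged IRF-1, whose coding sequence was amplified from pig embryonic fibroblast cDNA, and the control cells carried the same vector with Flag alone, both under puromycin selection. Each group had 2 RNA libraries, numbers 1 and 3 for the overexpressing cells and numbers 6 and 8 for the control. The genotype label of all 4 libraries reads overexpression of IRF-1, so the assignment of 6 and 8 to the control follows the study's description and not that label. The constitutive promoter and the factors that doxycycline kept on limit both groups as a model of unmodified stem cells, and nothing stated that the libraries of a group came from separate cultures, so p-values measure only the spread between libraries, which may be technical.

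IRF-1 is a transcription factor of the interferon response, and in many cell types it activates genes of cell death and inflammation, caspase genes and TNFSF10 among them. In the extrinsic pathway, a death ligand binds its receptor, an adaptor recruits the initiator CASP8, and CASP8 cleaves the effector caspases. In the intrinsic pathway, anti-apoptotic BCL2 proteins hold back the proteins that form pores in the outer mitochondrial membrane, BH3-only proteins relieve that hold, and released cytochrome c starts the caspase cascade. Pluripotent stem cells are known to lie close to the threshold of the intrinsic pathway and to depend on their anti-apoptotic BCL2 proteins.

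The libraries held 24923319 and 20858333 counts in the overexpressing cells and 15925429 and 17097669 in the control. Levels are given as CPM, counts per 1000000 counts of a library, scaled with TMM factors of 0.9974, 0.9978, 0.9817 and 1.024. A gene with no count may still have reached the level of 3 counts, which was 0.121 and 0.144 CPM in overexpressing libraries 1 and 3 and 0.192 and 0.171 CPM in control libraries 6 and 8, a limit that covers counting error only.

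IRF1 itself (ENSSSCG00000014277, chr2:134776124-134783819 of the Sscrofa11.1 build, minus strand) was read first, to check the labels. IRF1 was counted 8206 and 5485 times in overexpressing libraries 1 and 3 and 55 and 56 times in control libraries 6 and 8. Both overexpressing libraries lay far above both controls, as the assignment to groups has it and against a genotype label that is the same for all 4. The mean level was 297 ± 47.1 CPM against 3.36 ± 0.225 CPM (SD, n = 2 each), a log2 fold change of 6.46 (SE 0.21, edgeR quasi-likelihood test with Benjamini-Hochberg adjusted p = 3.65e-05). These counts do not separate the introduced copy from the cells' own gene.

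Markers of cell types were read in the same libraries. Of the 11 pluripotency markers listed, 6 had a named identifier, and their summed level was 1233 and 1276 CPM in the overexpressing libraries, against 1479 and 1641 CPM in the control, with DNMT3B the largest part of the summed CPM and LIN28A the highest per kilobase of exon. NANOG, a defining gene of the pluripotent state, was near the floor in every library, with 8, 11, 5 and 9 counts in libraries 1, 3, 6 and 8, and CDH1, ESRRB and LIN28A were called lower in the overexpressing cells. SOX2, POU5F1, SALL4, DPPA4 and TDGF1 were not analysed here, since no identifier carried those symbols.

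The list of simple epithelium and trophoblast markers differed widely in sum, at 308 and 1156 CPM in the overexpressing libraries against 15590 and 9547 CPM in the control. KRT8, a keratin of simple epithelia, was its most abundant gene, 3 of its 5 tested genes were called lower and 1, TFAP2A, higher, and CDX2 and HAND1 had no count in any library. Across all genes tested, 8.61% were called higher and 10.6% lower, for comparison with the called markers of each list. Fibroblast and feeder markers summed to 167 and 126 CPM against 314 and 178 CPM, with 5 of 7 tested genes lower and LUM at or under 3 counts. COL1A2, the largest part of the CPM summed over all 4 libraries, was the gene called higher, while in the control PDGFRB and FBLN1 exceeded it in CPM. Endothelial markers summed to 3.30 and 6.63 CPM against 56.9 and 64.3 CPM, mostly from TEK, the sole gene called (lower) of 3 tested, while ERG and CDH5 were at or under 3 counts. Of 16 leukocyte markers, 11 were at or under 3 counts in every library, PTPRC and CD3E among them, and the summed level of 410 and 470 CPM against 628 and 531 CPM came mostly from NCAM1, which is not restricted to leukocytes. None of the 5 leukocyte markers tested was called in either direction by edgeR, DESeq2 or limma-voom, and 1 of them, NCAM1, had an unadjusted p under 0.05. The part of these marker differences in the results on cell death genes was not tested, and in bulk RNA fewer cells of a type and less RNA per cell cannot be told apart.

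Across all 13250 genes tested, 1141 (8.61%) were called higher and 1410 (10.6%) lower in the overexpressing cells, where a call needs an adjusted p below 0.05 and at least a doubling or halving (1 on the log2 scale). These shares are the comparison for every count of called genes given here. Against this background, 1 of the 5 tested genes of the list was called lower, BCL2L1, whose identifier also covers the gene ID1, and 0 were called higher by edgeR's quasi-likelihood test. DESeq2 and limma-voom gave the same counts of 1 and 0. At an unadjusted p under 0.05, 1 gene was higher (MCL1) and 2 were lower (BCL2L1 and PIM1), beside 19.5% and 21.2% of all genes tested. Without overexpressing library 1, the calls over all genes fell to 756 higher and 874 lower. For any gene alone, 2 values against 2 allow an exact two-sided permutation p of 0.333 at the lowest, and each test here draws on the spread that edgeR pools over genes.

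**Figure D1:**
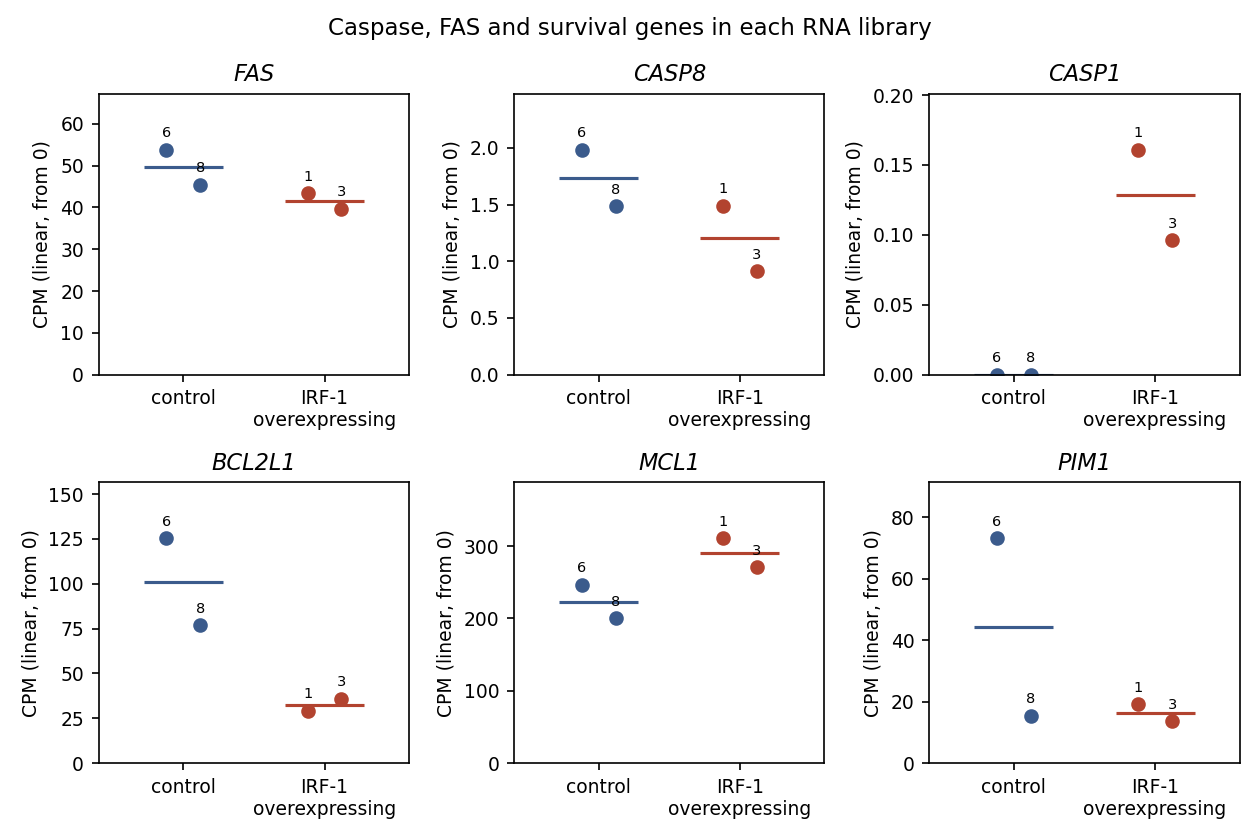
Level in CPM (linear axis from 0) of the 6 genes with a named identifier in each library, with the library number beside each point and a line at the mean of the 2 libraries of a group (control blue, IRF-1 overexpressing red). BCL2L1 was at 29.3 and 36.0 CPM in the overexpressing libraries, against 125 and 76.9 CPM in the control, while for PIM1 control library 6 (73.1 CPM) stood apart from control library 8 (15.5 CPM).

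FAS, the receptor that recruits CASP8 through the adaptor FADD when its ligand binds, was well expressed (ENSSSCG00000010448, chr14:100927112-100954882, plus strand). It reached counts of 1079 and 825 in overexpressing cells and of 841 and 794 in control cells, or 43.4, 39.6, 53.8 and 45.4 CPM in libraries 1, 3, 6 and 8. Both overexpressing libraries lay below both controls, but overexpressing library 1 and control library 8 were close. The means were 41.5 ± 2.66 and 49.6 ± 5.95 CPM (SD, n = 2 each), and the log2 fold change of -0.26 (SE 0.159) did not pass the test (edgeR quasi-likelihood with Benjamini-Hochberg adjusted p = 0.271).

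TNFSF10 encodes TRAIL, the ligand of another group of death receptors, and no identifier carried its symbol. RefSeq places it at chr13:111021952-111103060 of the same build. An identifier at chr13:111021958-111103065 that carries the name GHSR (ENSSSCG00000020906) had 3806 of its 3811 exon bases inside that span, and 0 inside the RefSeq span of GHSR at chr13:110981465-111006149. This identifier was counted 7 and 11 times with IRF-1 overexpression and 0 and 3 times without. The overexpressing libraries were higher, but all 4 counts were low, and the identifier did not pass the filter on low counts, so no fold change is given.

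FASLG, the ligand of FAS, had at most 2 counts in any library. Of the 15 death ligands and receptors listed, 11 had a named identifier and 7 were tested. Of these 7, 1 was called higher and 3 lower, beside 8.61% and 10.6% of all genes tested. TNFRSF1B, a receptor of TNF that has no death domain, rose from 6.05 ± 1.14 CPM in the control to 22.6 ± 3.62 CPM with IRF-1 overexpression (SD, n = 2 each). Its log2 fold change was 1.89 (SE 0.249, edgeR quasi-likelihood with Benjamini-Hochberg adjusted p = 0.00159). TNFRSF12A, the receptor of the ligand TNFSF12 (TWEAK), fell from 31.9 ± 6.30 to 5.14 ± 3.46 CPM (log2 fold change -2.65, SE 0.435, edgeR adjusted p = 0.00393 by Benjamini-Hochberg). LTBR, the lymphotoxin beta receptor, fell with a log2 fold change of -2.46 (SE 0.366, edgeR adjusted p = 0.00259 by Benjamini-Hochberg). Of the exon bases of the LTBR identifier, 51.6% lie in the RefSeq span of LTBR.

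TNFSF12 was also called lower (log2 fold change -1.88, edgeR adjusted p = 0.0185 by Benjamini-Hochberg), though its identifier shares 2385 of its 5244 exon bases with the neighbouring ligand gene TNFSF13, while the same edgeR test with any library removed gave an adjusted p of 0.00543 to 0.0882, the highest without overexpressing library 1. Of the exon bases of the TNFSF12 identifier, 25% lie in the RefSeq span of TNFSF12. TNFRSF21 (death receptor 6) was the most abundant receptor of the list per kilobase of exon over all 4 libraries, but was below TNFRSF12A in the control. It stood at 19.7 ± 1.47 CPM per kilobase in the overexpressing cells and 19.4 ± 1.97 in the control, with overlapping libraries.

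CASP8, the initiator caspase of the death receptors, was expressed at a low level (ENSSSCG00000028157, chr15:104923429-104951747, plus strand). It was counted 37 and 19 times in overexpressing libraries 1 and 3 and 31 and 26 times in control libraries 6 and 8, or 1.49, 0.913, 1.98 and 1.49 CPM. The groups overlapped, since overexpressing library 1 and control library 8 were at nearly the same level. Means of 1.20 ± 0.407 and 1.73 ± 0.352 CPM (SD, n = 2 each) gave a log2 fold change of -0.52 with an SE of 0.463 (edgeR quasi-likelihood with Benjamini-Hochberg adjusted p = 0.445), so the difference was about as large as its error. Of the exon bases of the CASP8 identifier, 48.7% lie in the RefSeq span of CASP8. CASP10, the related initiator next to CASP8 on chromosome 15, had 5, 5, 4 and 4 counts and was not tested.

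CFLAR, which lies on the same chromosome at chr15:104781528-104862664, encodes c-FLIP, a relative of CASP8 without protease activity that competes with it at the receptor complex. It reached counts of 1055 and 642 in overexpressing cells and of 145 and 163 in control cells. Both overexpressing libraries were well above both controls, and the control libraries were nearly equal. CFLAR rose from 9.29 ± 0.0283 to 36.6 ± 8.20 CPM, with a log2 fold change of 1.98 (SE 0.22, edgeR quasi-likelihood with Benjamini-Hochberg adjusted p = 0.000916). Per kilobase of exon, CFLAR stood at 3.62 ± 0.81 CPM in the overexpressing cells and CASP8 at 0.176 ± 0.0596, and in the control they stood at 0.918 ± 0.0028 and 0.254 ± 0.0515. This scale divides by all exon bases of an identifier, of which 99.8% lie in the RefSeq span for CFLAR, a larger part than for CASP8. CFLAR was the sole gene called of the 8 tested adaptors and regulators, and the highest of these by mean level, DAXX, was at 20.8 ± 0.659 against 15.7 ± 2.83 CPM per kilobase and was not called.

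Of the 7 tested genes of the initiator caspases and the apoptosome, CRADD alone was called, an adaptor that links PIDD1 to caspase 2 (log2 fold change 1.12, SE 0.193, edgeR adjusted p = 0.00476 by Benjamini-Hochberg). Without overexpressing library 1 its log2 fold change was 0.94, under the fold required. Of the exon bases of the CRADD identifier, 53.3% lie in the RefSeq span of CRADD. CYCS, the cytochrome c gene, was the most abundant gene of the cell death list, at 280 ± 3.34 CPM per kilobase in the overexpressing cells against 228 ± 4.34 in the control, and was not called.

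CASP1, the caspase of the inflammasome, which matures interleukins and cleaves gasdermin D, was close to absent (ENSSSCG00000028711, chr9:35187561-35200085, minus strand). It was counted 4 and 2 times with IRF-1 overexpression and 0 and 0 times without. All 4 values lay at or near the 3-count floor, so neither a fold change nor a test is given. PYCARD, the inflammasome adaptor, had 7, 3, 7 and 9 counts, and NLRP3, IL1A and IL33 had none in any library.

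Of the 16 inflammasome and pyroptosis genes listed, 9 had a named identifier and 3 were tested. GSDME, which encodes a pore-forming gasdermin, was counted 87 and 35 times in overexpressing libraries 1 and 3 and 5 and 8 times in control libraries 6 and 8, and it was called higher (log2 fold change 2.72, SE 0.579, edgeR adjusted p = 0.0112 by Benjamini-Hochberg). With each library left out in turn, its adjusted p ran from 0.00844 to 0.114 in the same edgeR test, and the call was lost without overexpressing library 1. IL18, a substrate of CASP1, had 21 and 34 counts against 126 and 91 and was called lower (log2 fold change -2.43, SE 0.45, edgeR adjusted p = 0.00647 by Benjamini-Hochberg). Of the exon bases of the IL18 identifier, 62% lie in the RefSeq span of IL18, and for GSDME this share was not determined. GSDMD, which encodes gasdermin D, was not called (log2 fold change -0.81, SE 0.297, edgeR adjusted p = 0.0799 by Benjamini-Hochberg), with 129 and 140 counts against 190 and 152 and both overexpressing libraries below both controls. In necroptosis, MLKL was the sole gene tested, with 28, 30, 85 and 35 counts in libraries 1, 3, 6 and 8, or 1.13, 1.44, 5.44 and 2.00 CPM. Both overexpressing libraries lay below both controls, but MLKL was not called (log2 fold change -1.53, SE 0.54, edgeR adjusted p = 0.0706 by Benjamini-Hochberg).

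BCL2L1 encodes BCL-XL, an anti-apoptotic protein of the outer mitochondrial membrane, and its identifier was the sole member of the 8 that was called (ENSSSCG00000035357, chr17:35315475-35415778, minus strand). It reached counts of 728 and 750 in overexpressing cells and of 1961 and 1345 in control cells, or 29.3, 36.0, 125 and 76.9 CPM. Both overexpressing libraries lay below both controls, and the controls differed from each other by 1.63-fold, a gap that 6.88% of 10202 expressed genes reached. The mean fell from 101 ± 34.3 to 32.7 ± 4.77 CPM (SD, n = 2 each), 0.323 times the control level. The log2 fold change was -1.63 (SE 0.243, edgeR quasi-likelihood with Benjamini-Hochberg adjusted p = 0.0026), and it stayed a call with each library left out in turn, at -1.93 to -1.24 (adjusted p from 2.08e-05 to 0.0145 by the same edgeR test).

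What this identifier counts is wider than BCL2L1. Of its 8165 exon bases, 3128 (38.3%) lie in the RefSeq span of BCL2L1 at chr17:35366139-35415798. An outlying exon of 3366 bases at chr17:35315475-35318840 holds the whole RefSeq span of ID1, 1225 bases at chr17:35316518-35317742, whose identifier lies on the opposite strand. ID1 encodes an inhibitor of basic helix-loop-helix transcription factors.

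The identifier named ID1 (ENSSSCG00000037016) was counted 0 and 0 times with IRF-1 overexpression and 2 and 0 times without. Of the 1225 bases of the ID1 span, 896 are exon in both identifiers and 329 are exon of the BCL2L1 identifier alone. The strand setting of the authors' counting was not given in the sources used here, and without strand a read that touches exons of both genes is by default left uncounted, while a read in the 329 bases is counted for BCL2L1. Reads of BCL2L1 and of ID1 therefore cannot be told apart in these counts, and the call belongs to the identifier and not to BCL2L1 alone.

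The paralogs ID2, ID3 and ID4, which were looked up after the BCL2L1 values had been seen, have identifiers elsewhere in the genome. ID3 was counted 219 and 431 times in overexpressing libraries 1 and 3 and 3772 and 2235 times in control libraries 6 and 8 (log2 fold change -3.65, SE 0.446, edgeR adjusted p = 0.00123 by Benjamini-Hochberg). ID2 and ID4 were also called lower, at log2 fold changes of -2.66 and -3.18. In ID2, ID3 and ID4, as in the BCL2L1 identifier, control library 6 was the highest, control library 8 next and both overexpressing libraries the lowest. This order was not particular to these genes, since KRT8, LTBR, TNFRSF12A and IL18 had it too, while TNFSF12 was highest in control library 8. The share of all genes with this order was not computed. The part of ID1 in the BCL2L1 counts was not tested. Elsewhere the identifier shares 487 exon bases with an unnamed gene of 3, 1, 0 and 0 counts and 192 with TPX2, which stood at 228 and 242 CPM against 208 and 251 CPM and was not called.

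**Figure D2:**
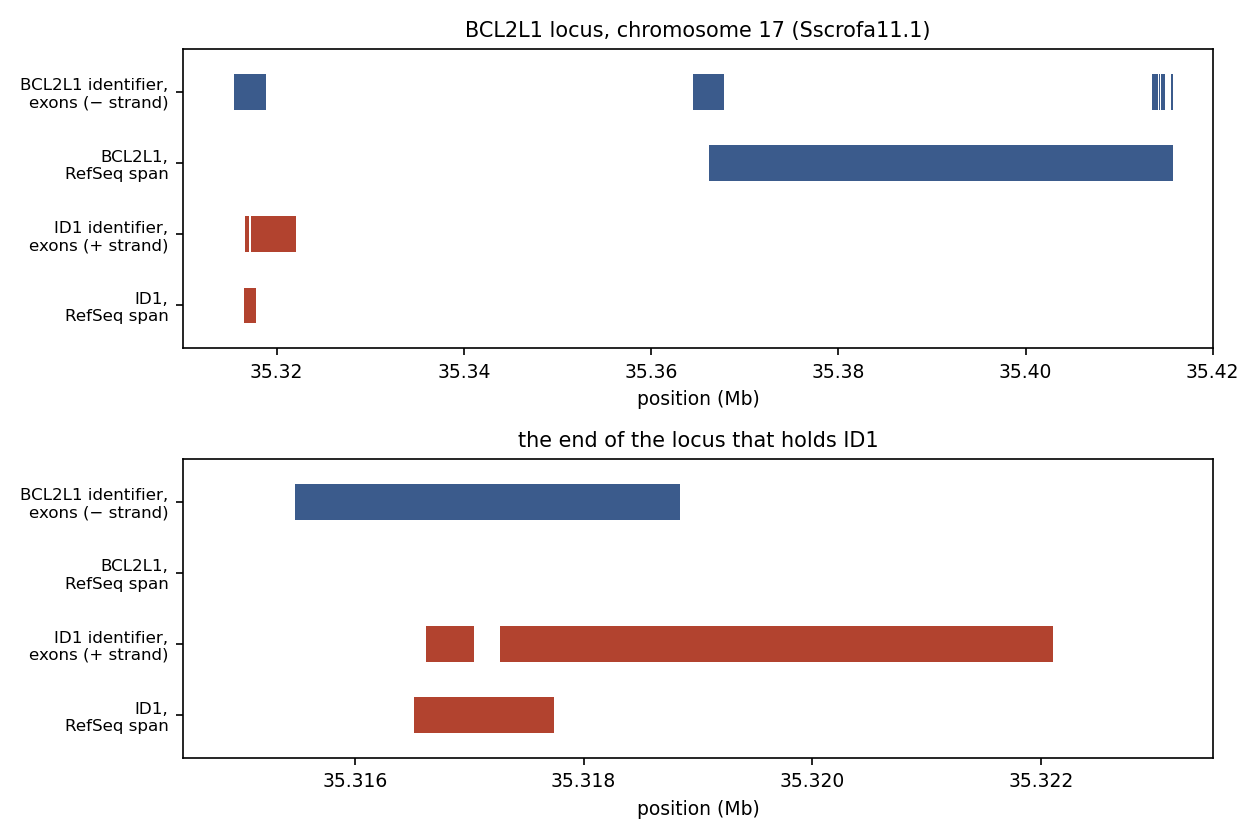
Map of the BCL2L1 locus on chromosome 17 (Sscrofa11.1, position in megabases), with exon blocks of the counted identifiers and the RefSeq spans of BCL2L1 (blue) and ID1 (red), the whole locus above and the end that holds ID1 enlarged. The exon of the BCL2L1 identifier at 35315475 to 35318840 covers all 1225 bases of the ID1 span and lies outside the RefSeq span of BCL2L1.

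MCL1, a short-lived anti-apoptotic protein that binds BAK1 and PMAIP1 (NOXA), was the most abundant of the genes on the list of 8 (ENSSSCG00000039314, chr4:98527907-98568965, plus strand). It reached counts of 7727 and 5631 in overexpressing cells and of 3856 and 3500 in control cells, or 311, 271, 247 and 200 CPM. Both overexpressing libraries lay above both controls, and overexpressing library 3 was close to control library 6. The means were 291 ± 28.5 and 223 ± 33.0 CPM (SD, n = 2 each), with a log2 fold change of 0.38 (SE 0.157) that did not pass the test (edgeR quasi-likelihood with Benjamini-Hochberg adjusted p = 0.109). Of its exon bases 61.8% lie in the RefSeq span of MCL1, and 516 are shared with ENSA on the same strand, which was not called.

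BCL2, the founding member of the family, had no identifier with its symbol. Its RefSeq span, chr1:158337403-158518214, falls in an identifier named KDSR (ENSSSCG00000025744, chr1:158288053-158518879), which has 5767 of its 12438 exon bases in the BCL2 span and 5515 in the span of KDSR, an enzyme of sphingolipid synthesis. This identifier was counted 1247 and 837 times with IRF-1 overexpression and 590 and 663 times without. The overexpressing libraries were higher, with a log2 fold change of 0.26 (SE 0.167) that did not pass the test (edgeR quasi-likelihood with Benjamini-Hochberg adjusted p = 0.291). Its reads cannot be divided between BCL2 and KDSR, so BCL2 has no level of its own in these data.

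The identifier of BCL2L2, which encodes the related survival protein BCL-W, had the highest level of the anti-apoptotic family per kilobase of exon. It stood at 55.6 ± 4.96 CPM per kilobase in the overexpressing cells and 52.8 ± 7.97 in the control, with overlapping libraries. The share of its 6807 exon bases in the RefSeq span of BCL2L2 was not determined. BCL2A1 had no count in any library, and BCL2L10 had no named identifier. Summed over BCL2L1, BCL2L2 and MCL1, the family stood at 105 and 106 CPM per kilobase in the overexpressing libraries, against 113 and 88.0 in the control, so the sums overlapped. Within that sum the BCL2L1 identifier made up 3.43% and 4.16% in the overexpressing libraries, against 13.7% and 10.7% in the control. MCL1 made up 46.7% and 40.0% against 34.4% and 35.7%, and BCL2L2 made up 49.9% and 55.8% against 52.0% and 53.6%. The shares of the BCL2L1 identifier and of MCL1 did not overlap between groups, and those of BCL2L2 did. Shares of a sum are tied, so the higher MCL1 share is not independent of the lower BCL2L1 share, and MCL1 itself was not called. These shares also carry the uncertainty over ID1 and over how much of the BCL2L2 identifier is BCL2L2.

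The proteins that the survival genes hold back were read beside them. The pore-forming genes BAK1 and BOK summed to 22.2 and 17.6 CPM per kilobase in the overexpressing libraries against 13.1 and 12.9 in the control, while BAX had no named identifier. The higher sum came from BAK1, since BOK was lower, at 2.01 and 1.66 against 2.28 and 2.47 CPM per kilobase, and neither gene was called. BAK1 had an adjusted p of 0.0111 (edgeR quasi-likelihood with Benjamini-Hochberg) at a log2 fold change of 0.76, under the fold required. Among 5 tested BH3-only genes, PMAIP1, which encodes NOXA, the partner of MCL1, was called higher and BBC3, which encodes PUMA, was called lower.

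PMAIP1 was counted 711 and 515 times in overexpressing libraries 1 and 3 and 95 and 73 times in control libraries 6 and 8, and rose from 5.12 ± 1.35 to 26.7 ± 2.73 CPM (log2 fold change 2.38, SE 0.255, edgeR adjusted p = 0.000811 by Benjamini-Hochberg). BBC3 had 246 and 332 against 459 and 392 counts, and its log2 fold change of -1.0 (SE 0.274, edgeR adjusted p = 0.0288 by Benjamini-Hochberg) lay at the limit of the fold required. Of the PMAIP1 identifier, 40.3% of the exon bases lie in the RefSeq span of PMAIP1. The BBC3 call was lost without overexpressing library 1 (-0.68), without control library 6 (-0.80) and under 4 other settings. None of the 6 tested inhibitors of apoptosis and their antagonists was called by edgeR, DESeq2 or limma-voom, and 1, XIAP, had an unadjusted p under 0.05. XIAP also passed on the adjusted p (0.0328 by edgeR with Benjamini-Hochberg) at a log2 fold change of -0.61, under the fold required. BIRC5 (survivin), their most abundant gene, was at 56.6 ± 10.1 against 63.3 ± 0.894 CPM per kilobase.

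PIM1, a serine/threonine kinase that STAT signals induce and that phosphorylates the BH3-only protein BAD, varied most within the control of the 5 tested genes (ENSSSCG00000001573, chr7:32788005-32793881, plus strand). It reached counts of 478 and 285 in overexpressing cells and of 1143 and 271 in control cells, or 19.2, 13.7, 73.1 and 15.5 CPM. Control library 6 stood far above the rest, and control library 8 lay between the overexpressing libraries, so the groups overlapped. The control libraries differed by 4.72-fold, a gap that 0.147% of 10202 expressed genes reached, against a median gap of 1.17-fold. The means of 16.5 ± 3.91 and 44.3 ± 40.7 CPM (SD, n = 2 each) gave a log2 fold change of -1.42 with an SE of 0.595 (edgeR quasi-likelihood with Benjamini-Hochberg adjusted p = 0.114).

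Without control library 6 the log2 fold change of PIM1 was 0.09 (edgeR adjusted p = 0.847 by Benjamini-Hochberg), and without control library 8 it was -2.14 (edgeR adjusted p = 5.49e-05), so the direction rested on which control library was read. PIM1 was also called lower when no filter on low counts was applied (log2 fold change -1.40, edgeR adjusted p = 0.000104 by Benjamini-Hochberg). AKT2, the highest of the survival kinases listed by mean level, was at 19.5 ± 0.677 against 20.2 ± 0.107 CPM per kilobase and was not called.

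The levels of the genes were put in order per kilobase of exon. In the control MCL1 was highest (35.0 ± 5.17 CPM per kilobase), followed by PIM1 (14.8 ± 13.6), the BCL2L1 identifier (12.4 ± 4.21) and FAS (10.3 ± 1.23), then CASP8 (0.254 ± 0.0515) and CASP1 (0). PIM1, BCL2L1 and FAS overlapped in the control and have no order there. In the overexpressing cells the order was MCL1 (45.6 ± 4.47), FAS (8.60 ± 0.551), PIM1 (5.50 ± 1.31), BCL2L1 (4.0 ± 0.585), CASP8 (0.176 ± 0.0596) and CASP1 (0.0733 ± 0.0261). The libraries of no neighbours in this order overlapped, but the lowest PIM1 value (4.57) was close to the highest BCL2L1 value (4.41). This scale divides by all exon bases of an identifier, of which 93.9% lie in the RefSeq span for FAS, 92% for PIM1 and 38.3% for BCL2L1. The order is therefore one of identifiers, and that of FAS, PIM1 and BCL2L1 may not hold for the genes themselves.

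The genes most alike in pattern were found by the Euclidean distance of log2 CPM over the 4 libraries, each gene centred on its own mean, among 9126 named genes of at least 5 CPM. BCL2L1 was closest to TMC6 (0.0999) and CDC14A (0.121). MCL1 was closest to RBFOX2 (0.0533) and MLYCD (0.0604), FAS to TSC22D4 (0.0288) and LACTB (0.0344), and CASP8 to DNASE1L1 (0.0241) and GRM8 (0.0895). FAS had 377 genes and MCL1 252 within a distance of 0.2, so their small differences were common ones, while CASP8 had 12 and BCL2L1 11. CASP8, with 19 to 37 counts in a library, lay under the 5 CPM required of the compared genes. Its pattern therefore holds more counting error than theirs, and its number of near genes cannot be set beside that of BCL2L1. PIM1 had 0, and its nearest genes, FOSL2 (0.569) and PLCD3 (0.598), were far by this measure.

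The list of cell death genes held 91 genes, the 8 above included, of which 68 had a named identifier and 52 were tested. Of these 52, 6 were called higher and 7 lower, beside 8.61% and 10.6% of all genes, and the median log2 fold change was -0.02 against -0.0016 over all genes. Without the 8 genes, 6 of 47 were called higher and 6 lower, with a median of 0.02. Among the genes called higher were TNFRSF1B, CFLAR, CRADD, GSDME and PMAIP1, and among those called lower were LTBR, TNFRSF12A, TNFSF12, IL18, BCL2L1 and BBC3. On adjusted p alone, with any fold change, 8 were higher and 10 lower, beside 13.9% and 15.5% of all genes tested. Of the 5 genes that passed on adjusted p but fell short of the fold, BAK1 (log2 fold change 0.76) and the apoptotic nuclease DFFB (0.997) were higher. The BH3-only gene BMF (log2 fold change -0.95), the caspase inhibitor XIAP (-0.61) and the FAS-associated factor FAF1 (-0.47) were lower. DFFB lay just under the fold required. Over the 10 alternatives that kept all libraries, the count of higher calls ran from 4 to 8 and that of lower calls from 4 to 10. The count of lower calls was 4 without overexpressing library 1 and 12 without control library 8.

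**Figure D3:**
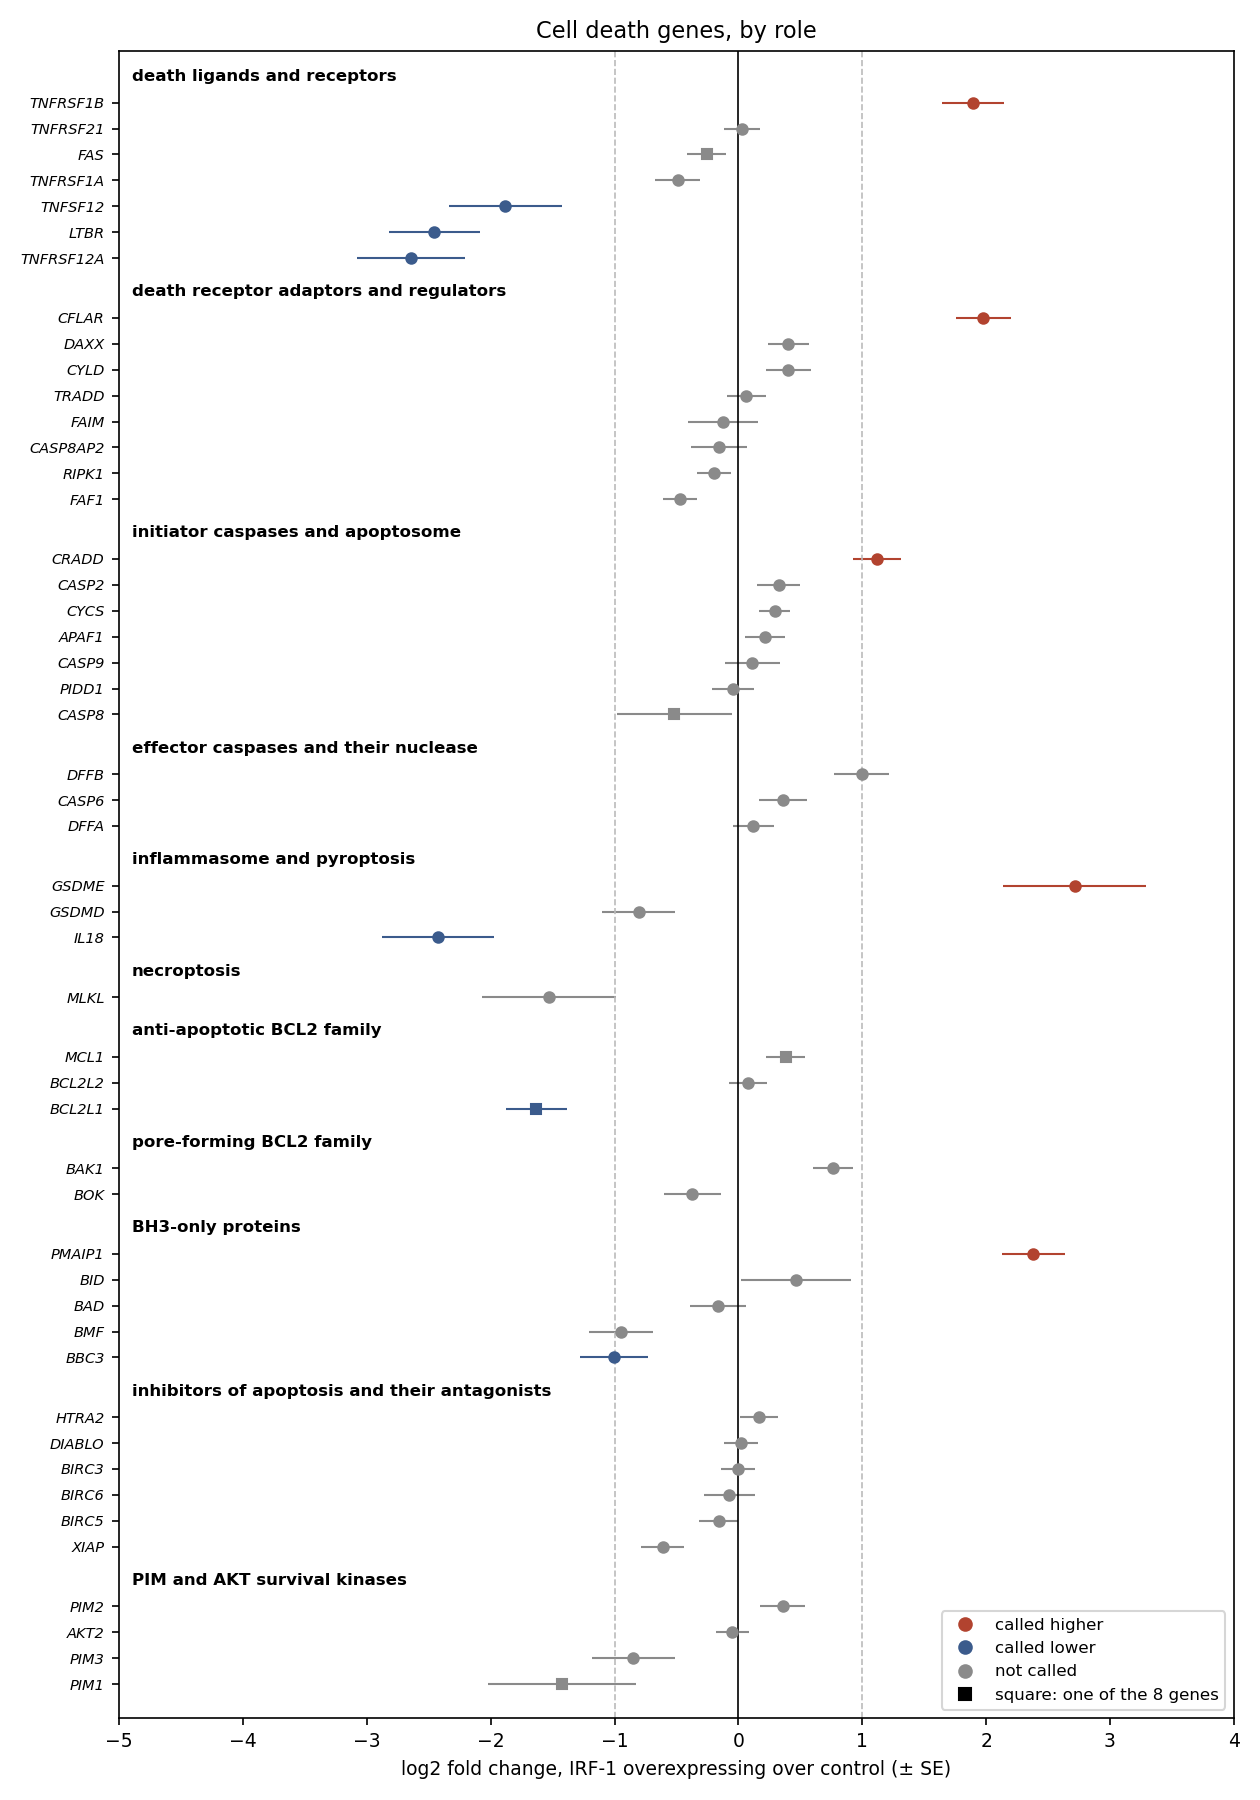
Log2 fold change (IRF-1 overexpressing over control, ± SE) of 49 of the 52 tested genes of the cell death list, grouped by role, with called genes in red (5 higher) and blue (6 lower), genes not called in grey and the 5 tested members of the 8 genes as squares. Dashed lines mark a log2 fold change of 1 in either direction, and the values run from -2.65 (TNFRSF12A) to 2.72 (GSDME).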

How the data were processed

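Poly(A)-selected RNA of 4 libraries was sequenced after feeder cells had been depleted by a short plating step. The authors trimmed reads with trim_galore, mapped them to Sscrofa11.1 with HISAT2 2.0.4 and deposited raw counts per gene from featureCounts 1.6.4 (versions from the submitters' processing notes), while the study's methods also name htseq-count. The annotation release and the strand setting were not given in the sources used here, and the labels and the study's methods name different culture media. Symbols came from a table of gene names (14692 of 24358 identifiers) and gene positions from RefSeq, Sscrofa11.1.

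Counts were fitted with edgeR 4.0.16 in R 4.3.3 (filterByExpr, TMM factors, quasi-likelihood test, Benjamini-Hochberg over 13250 genes). SE is the log2 fold change divided by the root of its F statistic. CPM per kilobase used the deposited exon length. Totals ran from 15925429 to 24923319 counts, and at the common dispersion of 0.0313 low counts give wide errors. DESeq2 1.42.0 and limma-voom 3.58.1, other scalings, filters and thresholds, and leaving out each library were the alternatives. The fit was tested on simulated data. Figures were drawn with matplotlib 3.10.9.

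The genes named were the 8 listed genes, IRF1, the called genes of the cell death list and the most abundant tested gene of each role, the 2 genes most alike in pattern to each tested gene, and the markers. Genes outside this rule (overlapping genes, ID2 to ID4, and cell death genes near the floor or not called) were named after their values were seen. The members and lists were chosen with earlier results of these data known. Of the cell death list, 3 tested genes enter the counts but are not reported here by name. ChIP libraries, promoter motifs and protein sequences were not analysed here.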

Additional observations from a re-analysis of the deposited data

How the results depend on the processing

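IRF1 and BCL2L1 were called in the same direction under all 14 alternatives, and CASP8, FAS and MCL1 under none of them, although these 3 genes kept the sign of their log2 fold change. Testing against a log2 fold change of 1 (glmTreat) gave 611 genes higher and 603 lower, with 4 of the cell death list lower, and adjusted p alone gave 1842 genes higher. With no filter on low counts, 2 of the 8 genes were lower. Leaving out a library gave 756 to 1156 genes higher and 874 to 1548 lower, 1 to 2 of the 8 genes lower and 4 to 12 of the cell death list lower. In these fits the lone library left in a group is assumed to vary like the other group. PIM1 ran from -2.14 to 0.0879, the positive value without control replicate 6, and the cause was not tested. TNFSF12, CRADD and GSDME lost their call under glmTreat and without overexpressing replicate 1, and BBC3 under 6 alternatives. No other call of the cell death list named in the report was lost. No paired analysis was possible because the groups share no replicate numbers. Depth limits CASP1, CASP8 and the TNFSF10 locus most, since they had at most 37 counts in a library.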
